A study of Mus musculus with 16 samples.

Results

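The genes described here are the readers and erasers of N6-methyladenosine (m6A) in mouse embryonic stem cells, 7 of the 54446 gene identifiers counted in every library. They were taken by Ensembl identifier and comprise 5 readers (Ythdf1, Ythdf2, Ythdf3, Ythdc1 and Ythdc2) and 2 erasers (Fto and Alkbh5). The study asked whether transcription rates change in mouse embryonic stem cells without Mettl14. Cells labelled CKO (the Mettl14 knockout) and Control cells, both of strain C57BL/6 and grown with LIF, CHIR99021 and PD0325901, were fed 5-ethynyl uridine (EU), which enters RNA as it is made. EU was present for 10, 20, 30 or 60 min, labelled RNA was captured by click chemistry, and the 8 groups of genotype and EU time held 2 libraries each, 16 altogether. The labels do not give how the Mettl14 deletion was made or induced, and they name the RNA both total and nascent polyA. Whether the libraries within a group stem from separate cultures is not said, so the p-values reflect the spread between these libraries alone, and that spread may be technical.

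Adenosine in messenger RNA is methylated by a complex whose core is METTL3 with METTL14. Proteins with a YTH domain bind the methylated base: YTHDF1, YTHDF2 and YTHDF3 act mainly in the cytoplasm, where YTHDF2 recruits the CCR4-NOT deadenylase and speeds decay of bound transcripts, while YTHDC1 is nuclear and bears on splicing, export and, in embryonic stem cells, chromatin and retrotransposon RNA. YTHDC2 carries an RNA helicase domain and is required for meiosis in the mouse germ line. FTO and ALKBH5 are oxygenases that remove methyl groups from adenosine, FTO also from the cap-adjacent base.

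CKO libraries held 5109162 to 26557342 mouse counts and Control libraries 12883425 to 28502750. Both libraries of the CKO 30 min group stood apart: they held 5188643 and 5109162 counts over 30583 and 31826 detected identifiers, while the other 14 libraries held at least 11902184 counts over at most 26857 identifiers. The tests over all EU times and across EU times are therefore given with and without the 30 min libraries, as are some other values. The ERCC-scaled tests are given with all libraries only. Counts of the 7 genes ranged from 247 to 14134 per library, with a median of 1957, and all 7 passed the filter on low counts. The kit is stranded, but the sources used here give neither the strand setting of the counting nor whether exons or whole genes were counted. Counts that share reads with an antisense or overlapping gene, or with a processed copy, are therefore uncertain. Mettl14 as a check of the genotype labels, the markers of pluripotent and feeder cells and the other genes of the m6A pathway were not analysed here, because the tables used pair no symbol with their identifiers.

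The result that stands out concerns Ythdf2, so the 250 bases before its annotated start are shown. The change lies in counts of that gene in EU-captured RNA. Whether it reflects transcription of Ythdf2 was not tested. The windows of Ythdf1 and Alkbh5 are shown beside it because these 2 genes were called as rising in share from 10 to 60 min of EU in both genotypes. Sequences and positions are from RefSeq, build GRCm38.p6, written 5′ to 3′ on the gene's strand. Capitals mark GGGCGG, the core of the GC box, or its complement CCGCCC.
Ythdf2, chr4:132212257-132212506, minus strand: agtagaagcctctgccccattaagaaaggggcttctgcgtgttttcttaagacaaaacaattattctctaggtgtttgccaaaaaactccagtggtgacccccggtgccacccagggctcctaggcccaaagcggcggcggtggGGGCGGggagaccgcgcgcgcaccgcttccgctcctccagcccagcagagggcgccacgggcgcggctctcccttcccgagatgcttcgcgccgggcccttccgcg
Ythdf1, chr2:180920937-180921186, minus strand: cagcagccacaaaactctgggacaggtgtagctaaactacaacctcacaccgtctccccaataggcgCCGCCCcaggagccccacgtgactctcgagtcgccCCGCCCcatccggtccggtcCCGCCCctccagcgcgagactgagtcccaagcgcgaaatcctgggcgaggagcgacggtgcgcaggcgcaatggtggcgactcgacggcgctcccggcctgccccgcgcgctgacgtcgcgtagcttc
Alkbh5, chr11:60537433-60537682, plus strand: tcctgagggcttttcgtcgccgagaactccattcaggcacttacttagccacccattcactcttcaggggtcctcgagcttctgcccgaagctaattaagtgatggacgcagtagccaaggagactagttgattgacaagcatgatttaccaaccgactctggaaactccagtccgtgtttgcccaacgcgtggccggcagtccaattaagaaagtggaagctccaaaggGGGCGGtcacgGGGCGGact
The Ythdf2 window held 1 GC box core, no TATAAA and no CCAAT on either strand, and 22 CG dinucleotides. The Ythdf1 window held 3 GC box cores, 1 CCAAT and 30 CG, and the Alkbh5 window held 2 GC box cores, 1 CCAAT and 14 CG, with no TATAAA in either. Among 32851 RefSeq windows of the same length, 32.7% held GGGCGG on either strand, 12.4% TATAAA and 33.8% CCAAT, and the median number of CG was 6. All 3 windows were thus richer in CG than the median window.

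Ythdf2 RNA was lower in CKO than in Control cells after 10 min of EU. Levels are given as CPM, counts scaled to 1000000 mouse counts per library after TMM scaling, which sets each library against the bulk of its genes. Ythdf2 had 221 and 193 CPM in the CKO 10 min libraries, against 1004 and 945 CPM in the Control 10 min libraries. The groups did not overlap, and the log2 fold change was −2.24 (SE 0.10), with adjusted p = 3.547e-14 by edgeR's quasi-likelihood test with Benjamini-Hochberg adjustment over all 27488 identifiers tested. How many of all identifiers did not overlap between the genotypes was not counted, at this or any other EU time. The Control pair stood apart from all other libraries. Ythdf2 lay between 109 and 221 CPM in the 8 CKO libraries and between 178 and 228 CPM in the remaining 6 Control libraries.

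The size of this departure was set against all 9472 identifiers with a mean of at least 10 CPM. The lower Control 10 min library was 4.15-fold above the highest of the other 14 libraries for Ythdf2. Ythdf2 was the only one of the 9472 identifiers at least 2-fold above all other libraries in both Control 10 min libraries, and the next largest gap was 1.8-fold. Such gaps occurred in other groups too: for 11 identifiers in CKO 10 min (up to 3.6-fold), 52 in CKO 30 min (up to 80.6-fold) and 1 in CKO 60 min. There were 0 in CKO 20 min and in Control after 20, 30 and 60 min. In raw counts Ythdf2 had 2555 and 2394 in CKO after 10 min, against 13558 and 14134 in Control. It was the 76th and 83rd most counted identifier of those Control libraries. After 20 min in Control it had 3323 and 3221 counts and stood at ranks 1034 and 1088. Only 6 of the 9472 identifiers had a lower log2 fold change between CKO and Control at 10 min.

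**Figure D1:**
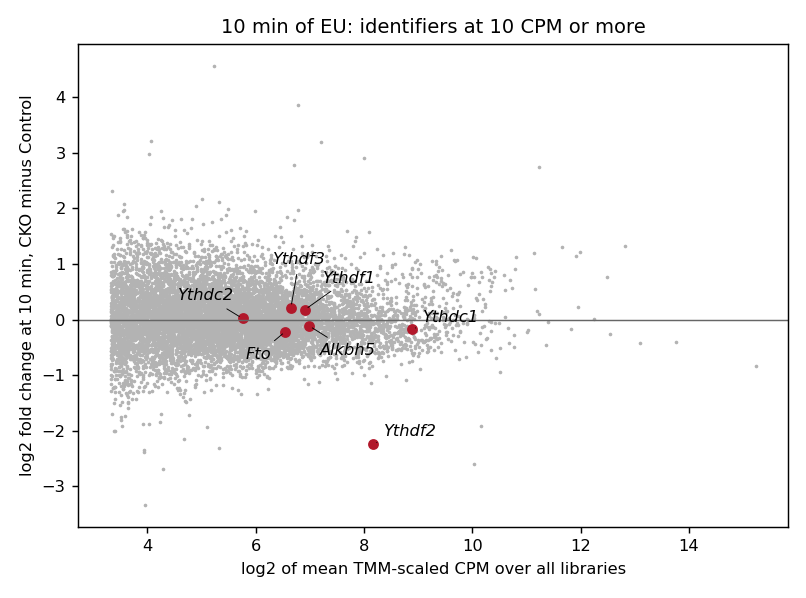
Log2 fold change of CKO minus Control after 10 min of EU (vertical axis) against the log2 of the mean TMM-scaled CPM over all 16 libraries (horizontal axis). Grey points are 9472 identifiers with a mean of at least 10 CPM and red points are the 7 readers and erasers; Ythdf2 lies at −2.24, while the other 6 lie between −0.22 and 0.21.

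The other readers and both erasers did not pass the threshold at 10 min. Ythdf1 had 102 and 124 CPM in CKO against 96.8 and 103 CPM in Control, and Ythdf3 had 91.3 and 102 CPM in CKO against 72.8 and 94.0 CPM in Control. Both pairs overlapped, with log2 fold changes of 0.18 (SE 0.12) for Ythdf1 and 0.21 (SE 0.12) for Ythdf3 (edgeR adjusted p = 0.355 and 0.258). For the nuclear reader Ythdc1, CKO libraries had 433 and 432 CPM and Control libraries 508 and 466 CPM. These did not overlap, and the difference of −0.17 (SE 0.08) did not pass with all libraries (edgeR adjusted p = 0.191) but passed without the 30 min libraries, at −0.21 (SE 0.07, edgeR adjusted p = 0.0324), where 11.9% of identifiers were called lower. Ythdc2 overlapped between the genotypes, at 62.4 and 45.6 CPM in CKO against 45.3 and 61.1 CPM in Control, a log2 fold change of 0.02 (SE 0.16). The eraser Fto had 82.7 and 84.9 CPM in CKO against 101 and 93.7 CPM in Control, a log2 fold change of −0.22 (SE 0.11, edgeR adjusted p = 0.229). The eraser Alkbh5 had 82.3 CPM in both CKO libraries against 90.5 and 87.8 CPM in Control, −0.12 (SE 0.11, edgeR adjusted p = 0.578). Thus 1 of the 7 genes was called lower and none higher, where 5.36% of all identifiers tested were called lower and 6.45% higher. The median log2 fold change was −0.12 over the 7 genes and 0.00 over all identifiers.

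**Figure D2:**
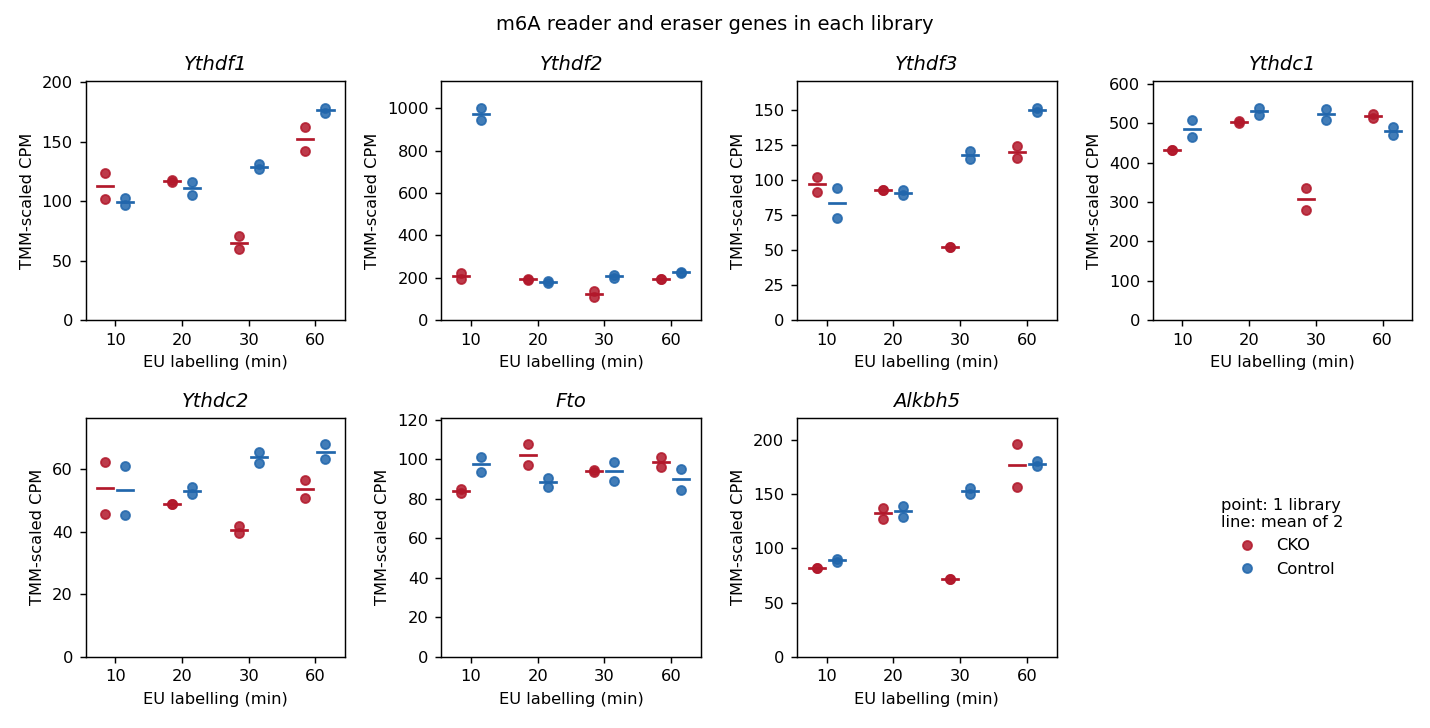
TMM-scaled CPM of each gene (vertical axes, starting at 0) in each library by EU time in minutes, CKO left of Control at each time. Each point is 1 library and each short line the mean of 2; the Control 10 min libraries of Ythdf2 stand at 1004 and 945 CPM, and 6 of the 7 genes are lower in the CKO 30 min libraries than in Control.

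After 20 min of EU none of the 7 genes differed between the genotypes at the threshold. By edgeR's test 0 genes were called, 0 had an unadjusted p under 0.05, and DESeq2 also called 0, where 0.960% of all identifiers were called. Ythdf2 had 196 and 188 CPM in CKO against 186 and 178 CPM in Control, a log2 fold change of 0.08. The largest difference was that of Fto, with 108 and 96.9 CPM in CKO against 90.5 and 86.1 CPM in Control, 0.21 (SE 0.11, edgeR adjusted p = 0.779). The Fto groups did not overlap, and the difference passed when only these 4 libraries were fitted, at 0.22 (edgeR adjusted p = 0.0481), a fit that called 6.96% of its identifiers higher. The other 5 genes lay between −0.12 and 0.08.

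After 30 min of EU all 5 readers and Alkbh5 were called lower in CKO, and Fto was not called. Ythdf3 showed the largest decrease among the YTHDF genes, with 52.4 and 52.2 CPM in CKO against 115 and 121 CPM in Control, a log2 fold change of −1.17 (SE 0.12, edgeR adjusted p = 3.842e-08). Ythdf1 fell by 0.98 (SE 0.12) to 71.2 and 59.4 CPM in CKO, against 127 and 131 CPM in Control. Ythdf2 fell by 0.74 (SE 0.10) to 109 and 139 CPM in CKO, against 200 and 213 CPM in Control. The CKO and Control libraries overlapped for none of these genes, and the share of all identifiers without overlap at 30 min was not counted.

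Among the YTHDC readers at 30 min, Ythdc1 had 281 and 336 CPM in CKO against 538 and 508 CPM in Control, −0.76 (SE 0.08). Ythdc2 had 41.7 and 39.5 CPM in CKO against 65.5 and 62.0 CPM in Control, −0.65 (SE 0.16, edgeR adjusted p = 0.00298). The call for Ythdc2 was lost with median-of-ratios scaling (−0.37, adjusted p = 0.0632), DESeq2 (−0.37, adjusted p = 0.0596) and library totals (−0.34, adjusted p = 0.0854). The erasers parted: Alkbh5 fell by 1.09 (SE 0.11, edgeR adjusted p = 2.292e-08) to 72.0 and 71.2 CPM in CKO, against 156 and 150 CPM in Control, while Fto had 93.5 and 94.5 CPM in CKO against 98.6 and 89.1 CPM in Control, 0.00 (SE 0.11). Fto was called higher with median-of-ratios scaling (0.28, adjusted p = 0.0465), DESeq2 (0.28, adjusted p = 0.0129) and library totals (0.31, adjusted p = 0.0285).

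These 30 min values stand in libraries where lower values were common. Among all identifiers tested 19.1% were called lower and 29.4% higher. Among the 9363 identifiers with at least 10 CPM outside the CKO 30 min libraries, 51.1% were called lower, and their median log2 fold change was −0.46. The median over the 7 genes was −0.76 and that over all identifiers 0.61. The low counts and the higher number of detected identifiers in the CKO 30 min libraries move with these results, and their part in them was not tested.

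After 60 min of EU edgeR called 0 of the 7 genes, although 2 had an unadjusted p under 0.05 and DESeq2 called 2, Ythdf2 and Ythdf3. Among all identifiers 2.63% were called by edgeR, and DESeq2 called 8.78% of those it tested lower. Ythdf3 had 116 and 125 CPM in CKO against 152 and 149 CPM in Control, a log2 fold change of −0.32 (SE 0.11) with edgeR adjusted p = 0.185 and DESeq2 adjusted p = 0.00522. Ythdf2 had 193 and 195 CPM in CKO against 224 and 228 CPM in Control, −0.22 (SE 0.10) with edgeR adjusted p = 0.38 and DESeq2 adjusted p = 0.032. Ythdf1 had 142 and 163 CPM in CKO against 179 and 174 CPM in Control, −0.21 (SE 0.11). The libraries of the genotypes did not overlap for any of the YTHDF genes, although edgeR called none of them with all libraries. The share of all identifiers without overlap was not counted. Without the first CKO 30 min library edgeR called both Ythdf3, at −0.37, and Ythdf2, at −0.27 (adjusted p = 0.0172 and 0.0429), and without the second only Ythdf3, at −0.36 (adjusted p = 0.0208). Without all 30 min libraries edgeR called neither, with Ythdf3 at −0.32 and Ythdf2 at −0.22 (adjusted p = 0.105 and 0.125), where it called 4.93% of identifiers; 3 of the 7 genes then had an unadjusted p under 0.05.

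Neither the YTHDC readers nor the erasers passed at 60 min. Ythdc1 had 515 and 524 CPM in CKO against 490 and 470 CPM in Control, 0.12 (SE 0.08), the reverse of its sign at 10, 20 and 30 min. Ythdc2 had 50.6 and 56.6 CPM in CKO against 63.2 and 68.0 CPM in Control, −0.29 (SE 0.15, edgeR adjusted p = 0.597). Fto had 96.3 and 101 CPM in CKO against 84.4 and 95.2 CPM in Control, 0.14 (SE 0.11). The libraries of the genotypes did not overlap for these 3 genes, but how common that was among all identifiers was not counted. Alkbh5 did overlap, at 157 and 196 CPM in CKO against 176 and 180 CPM in Control, −0.01 (SE 0.10).

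**Figure D3:**
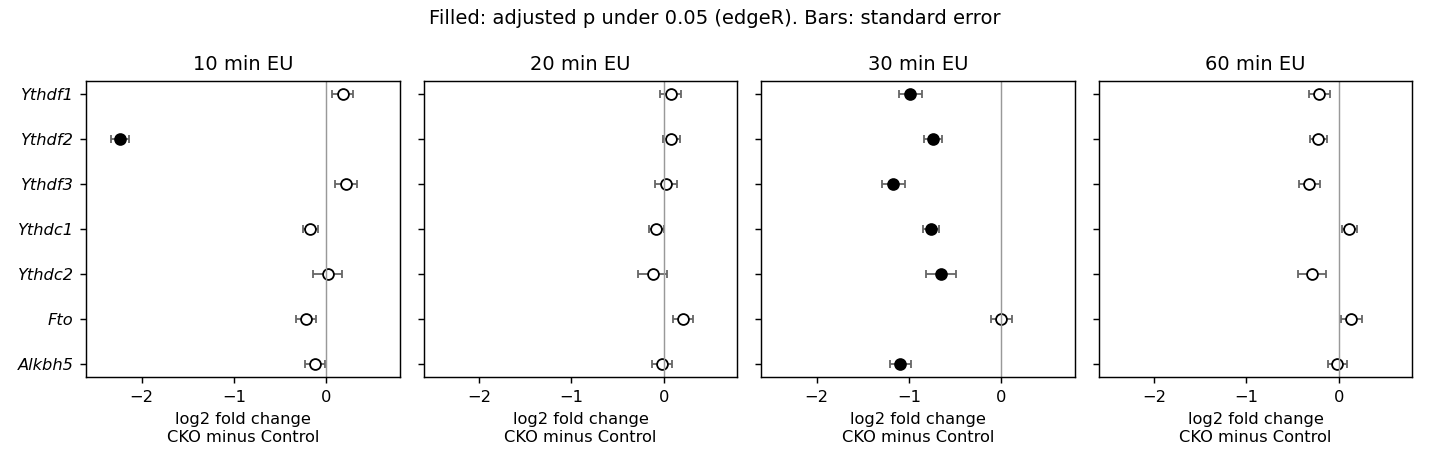
Log2 fold change of CKO minus Control (horizontal axes) for each gene (vertical axes), with a panel for each EU time in minutes. Bars are 1 standard error from edgeR's fit, and filled points have edgeR adjusted p under 0.05. Ythdf2 departs from 0 at 10 min (−2.24) and at 30 min (−0.74), and the other genes except Fto depart at 30 min.

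Over all EU times together, Ythdf2 was the only one of the 7 genes called, at −0.76 (SE 0.21, edgeR adjusted p = 0.0293), where 4.70% of identifiers were called lower. It was lower in CKO at 3 of the 4 EU times. This call rests on the 10 and 30 min libraries. Without the 30 min libraries the value was −0.78 (SE 0.38, edgeR adjusted p = 0.244), without the 10 min libraries −0.29 (edgeR adjusted p = 0.144), and without both −0.09 (edgeR adjusted p = 0.451). Leaving out any 1 of the 16 libraries also ended the call, with adjusted p between 0.0542 and 0.184. Without the 30 min libraries edgeR called 0 of the 7 genes, where it called 12.6% of identifiers, 0 had an unadjusted p under 0.05, and the 6 genes other than Ythdf2 lay between −0.15 and 0.03.

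Whether the genotype difference changed with EU time was tested directly by an F-test with 3 degrees of freedom. It passed for Ythdf1, Ythdf2, Ythdf3, Ythdc1 and Alkbh5, 5 of the 7 genes, where 22.7% of all identifiers passed. The share among identifiers with a mean of at least 10 CPM, as these genes have, was not counted. The F values were 112 for Ythdf2 (edgeR adjusted p = 3.867e-11) and 19.9 to 25.9 for the other 4. Ythdc2 (F of 3.20, edgeR adjusted p = 0.121) and Fto (2.89, edgeR adjusted p = 0.151) did not pass. Both passed with ERCC scaling (adjusted p = 0.00017 for Ythdc2 and 0.0245 for Fto), which called all 7 genes and 38.4% of identifiers. Fto also passed with DESeq2 (adjusted p = 0.00366), which called 6 of the 7, and with library totals (adjusted p = 0.0278). Without the 30 min libraries Ythdf2 alone passed, with F of 266 (edgeR adjusted p = 3.684e-09), where 5.58% of identifiers did. The other 6 genes then had adjusted p between 0.108 and 0.804.

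With longer labelling the genes took unequal courses as shares of the captured RNA. In CKO cells Alkbh5 rose by a log2 fold change of 1.10 (SE 0.11, edgeR adjusted p = 2.639e-08) from 10 to 60 min, Ythdf1 by 0.44 (SE 0.11, edgeR adjusted p = 0.00796) and Ythdc1 by 0.27 (SE 0.08, edgeR adjusted p = 0.0249), where 8.96% of identifiers rose. Ythdf3 had 0.31 (SE 0.12, edgeR adjusted p = 0.0722), and Ythdf2 −0.09 (SE 0.10, edgeR adjusted p = 0.644). The calls for Ythdf1 and Ythdc1 were lost without the first CKO 10 min library (0.30 and 0.27, adjusted p = 0.170 and 0.0789) or without the second CKO 60 min library (0.32 and 0.24, adjusted p = 0.159 and 0.108). The call for Ythdc1 was also lost without the second CKO 10 min library (0.26, adjusted p = 0.0928) and with median-of-ratios scaling or library totals (0.21 in both, adjusted p = 0.0928 and 0.0974). Ythdf3 passed at 0.32 without the second Control 10 min library (adjusted p = 0.0473) and at 0.31 without the first or the second CKO 30 min library alone (adjusted p = 0.0312 and 0.0296). Without all 30 min libraries it was 0.29 and did not pass (adjusted p = 0.0566). Over 60 minus 20 min in CKO only Alkbh5 was called, at 0.41 (edgeR adjusted p = 0.0234), where 2.19% of identifiers rose.

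In Control cells, Alkbh5, Ythdf3 and Ythdf1 rose from 10 to 60 min by log2 fold changes of 1.00 (SE 0.11), 0.85 (SE 0.12) and 0.82 (SE 0.11), where 6.88% of identifiers rose. Ythdf2 fell by 2.11 (SE 0.10, edgeR adjusted p = 7.802e-14), where 3.21% fell, and only 26 of the 9472 identifiers with a mean of at least 10 CPM had a lower value; per ERCC count its sign was the reverse. Ythdf2 kept no decrease when the 20 min libraries stood in for those of 10 min: the 60 minus 20 min value was 0.32 (SE 0.10, edgeR adjusted p = 0.0651). Alkbh5, Ythdf3 and Ythdf1 also rose over 60 minus 20 min, by 0.41, 0.72 and 0.67, where 2.56% of identifiers rose. Ythdc1, Ythdc2 and Fto had 60 minus 10 min values of −0.02 (SE 0.08), 0.30 (SE 0.16) and −0.12 (SE 0.11) and were not called. The share of Alkbh5 thus rose in both genotypes. The difference between the genotypes in the 60 minus 10 min change was not tested by itself.

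The amount of RNA per spike-in was read as counts per 1000 ERCC counts. ERCC RNA was added after capture, so this ratio carries cell number, RNA recovery and capture yield along with labelled RNA. ERCC counts made up 3.38% and 2.83% of the CKO 10 min libraries and 7.97% and 7.54% of the Control 10 min libraries. Ythdf2 had 6.13 and 6.25 counts per 1000 ERCC counts in CKO after 10 min, 11.5 and 10.9 after 20 min, 10.7 and 8.06 after 30 min and 22.9 and 27.5 after 60 min. In Control it had 11.8 and 11.6 after 10 min, 8.20 and 7.87 after 20 min, 15.8 and 17.9 after 30 min and 28.4 and 28.4 after 60 min. Ythdf2 in Control thus stood higher after 10 min than after 20 min on this scale too. Only 3 of the 9472 identifiers (0.0317%) had both Control 10 min libraries above both 20 min libraries, and Ythdf2 was 1 of them; in CKO 74 identifiers did (0.781%), none of the 7 genes among them.

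The other genes had higher values after 60 min than after 10 min in both genotypes, but not at every step in between. Alkbh5 had 2.29 and 2.67 counts per 1000 ERCC counts in CKO after 10 min, 8.07 and 7.40 after 20 min, 7.07 and 4.13 after 30 min and 18.6 and 27.6 after 60 min. In Control Alkbh5 had 1.06 and 1.08, then 6.15 and 5.71, 12.3 and 12.6, and 22.3 and 22.4 at the same times. Ythdc1 had 12.02 and 14.0 after 10 min, 29.4 and 29.4 after 20 min, 27.6 and 19.5 after 30 min and 61.0 and 73.8 after 60 min in CKO. In Control it had 5.95 and 5.74, then 23.9 and 23.1, 42.5 and 42.8, and 62.1 and 58.5. Both CKO 30 min libraries thus lay below both CKO 20 min libraries for Alkbh5 and Ythdc1, as they did for Ythdf2. The same held for Ythdf3, at 5.16 and 3.03 after 30 min against 5.45 and 5.39 after 20 min, but not for Ythdf1, Ythdc2 or Fto. All mouse counts per ERCC count in CKO were 81.56 and 47.42 after 30 min, on either side of the 20 min values. The share of all identifiers with both CKO 30 min libraries below both CKO 20 min libraries was not counted. At 10 min the CKO libraries lay above the Control libraries for each of the 6 genes other than Ythdf2. At 20 min both CKO libraries lay above both Control libraries for all 7 genes. All mouse counts per ERCC count had the same order. They were 28.57 and 34.3 in CKO against 11.55 and 12.26 in Control at 10 min. At 20 min they were 60.28 and 59.34 in CKO against 45.54 and 45.19 in Control. The share of identifiers with this order was not counted.

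**Figure D4:**
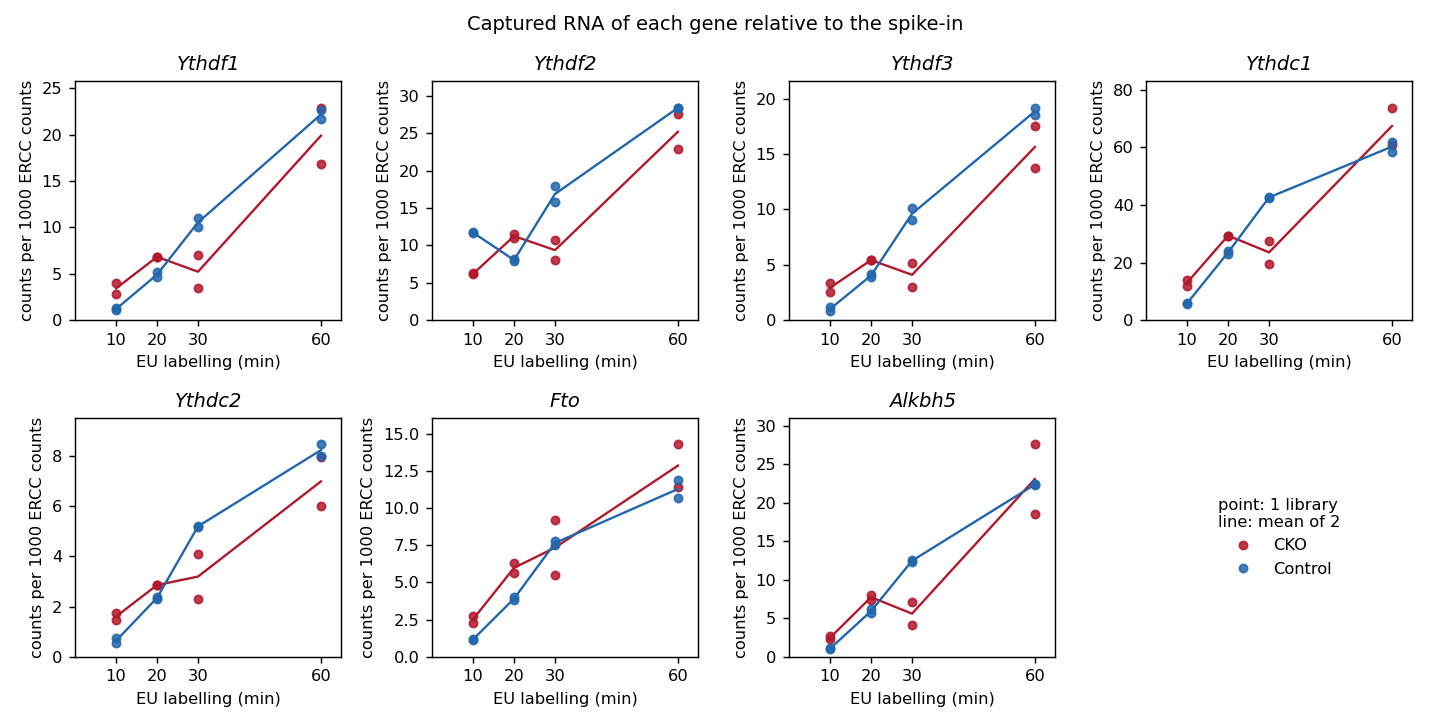
Counts per 1000 ERCC counts (vertical axes, starting at 0) for each gene in each library against EU time in minutes (horizontal axes); points are libraries and lines join the means of the 2 libraries of each CKO and Control group. Ythdf2 in Control is at 11.8 and 11.6 after 10 min, above its 8.20 and 7.87 after 20 min, while the other genes have their lowest Control values at 10 min.

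With edgeR's test scaled on ERCC counts, Ythdf2 at 10 min remained lower in CKO, by a log2 fold change of −0.92 (SE 0.22, edgeR adjusted p = 0.000732), where 0.466% of all identifiers were called lower. The other 6 genes were called higher in CKO at 10 min, from 1.11 for Fto to 1.54 for Ythdf3, where 43.1% of identifiers were called higher and the median over all identifiers was 1.14. The ERCC-scaled sign at 10 min was the reverse of the TMM-scaled one for Ythdc1, Fto and Alkbh5. At 30 min the same 6 genes as with TMM were called lower, between −1.24 for Ythdf3 and −0.71 for Ythdc2, where 15.0% were called lower. There 11623 of 27488 identifiers were called in either direction, and the median over all was 0.53. The share called lower among identifiers with a mean of at least 10 CPM was not counted on this scale. At 20 min ERCC scaling called 0 of the 7 genes with 2 at an unadjusted p under 0.05, where 0.531% of identifiers were called. At 60 min it called 0 with 0 at that level, where 0.0437% were called. From 10 to 60 min all 7 rose on this scale in both genotypes. In CKO the rises were between 2.03 for Ythdf2 and 3.22 for Alkbh5, where 52.9% of identifiers rose and the median over all was 2.01. In Control the rise was 1.28 for Ythdf2 and between 3.27 and 4.38 for the other 6, where 66.5% rose and the median over all was 3.25.

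Accumulation per minute was taken as the least squares slope of counts per 1000 ERCC counts on EU minutes over the 8 libraries of a genotype. It was 0.371 (SE 0.055) in CKO and 0.384 (SE 0.061) in Control for Ythdf2, a log2 ratio of −0.05 (SE 0.31). With 1 library left out this ratio ranged from −0.329 to 0.044. The Control fit includes the 10 min libraries, at 11.8 and 11.6, above the 8.20 and 7.87 after 20 min. Values this high at the shortest EU time flatten the Control slope, and slopes without them are not given here. The ratio therefore does not show equal accumulation of Ythdf2 in the genotypes. The log2 ratios of CKO over Control were nearest 0 for Fto (0.00, SE 0.27) and Ythdc1 (0.01, SE 0.28). They were lowest for Ythdf3 (−0.50, SE 0.26), Ythdc2 (−0.50, SE 0.25) and Ythdf1 (−0.36, SE 0.27). With all libraries each ratio lay within 2 standard errors of 0, and the slope of all mouse counts per ERCC count was 0.921-fold that of Control in CKO. Without the second CKO 60 min library 3 ratios lay more than 2 standard errors below 0: −0.86 (SE 0.33) for Ythdf3, −0.83 (SE 0.29) for Ythdc2 and −0.78 (SE 0.33) for Ythdf1. That of Alkbh5 was then −0.52 (SE 0.31). The library left out had 154.6 mouse counts per ERCC count, against 127.6 in the first CKO 60 min library. The slope of all mouse counts was not taken without it. Whether the ratios of these genes then fell below that of all mouse counts was therefore not tested.

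Likeness of pattern was measured as the Pearson correlation of log2 CPM over the 12 libraries of 10, 20 and 60 min. The 2 libraries of a group share genotype and EU time, so the points are not independent. Among the 7 genes, Ythdf1 and Ythdf3 were most alike, with r = 0.955, and Ythdf1 was the 3rd most alike to Ythdf3 of all 9472 identifiers. The identifier most like Ythdf2 was ENSMUSG00000001552.14, with r = 0.977 over 12 libraries and 0.727 over the 10 that leave out Control 10 min. For Alkbh5 it was ENSMUSG00000022865.14, with r = 0.988 both with and without those libraries. The highest r of the other 5 genes with any identifier was between 0.897 for Fto and 0.974 for Ythdf1 and Ythdf3. The highest correlation of Ythdf2 with another of the 7 genes was 0.228, with Fto.

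The genes lie on separate chromosomes of build GRCm38.p6, and RefSeq annotates all 7 as protein coding. Ythdf1 (ENSMUSG00000038848.14) spans chr2:180904377-180920936, Ythdf2 (ENSMUSG00000040025.17) chr4:132184916-132212256 and Ythdf3 (ENSMUSG00000047213.14) chr3:16183148-16217037. Ythdc1 (ENSMUSG00000035851.14) spans chr5:86803980-86836659 and Ythdc2 (ENSMUSG00000034653.11) chr18:44827730-44889720. Fto (ENSMUSG00000055932.15) spans chr8:91313367-91668433 and Alkbh5 (ENSMUSG00000042650.3) chr11:60537683-60558512. Fto is the longest at 355 kb, while the other 6 span 16.6 to 62.0 kb.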

How the data were processed

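Nascent RNA libraries of mouse embryonic stem cells were counted per Ensembl gene identifier. The deposited values are raw counts, not normalised. The submitters' processing notes name HISAT2 2.1.0, HTSeq, Trimmomatic 0.38 and CASAVA, with build mm10; the annotation release is not given in the sources used here. The 7 genes and the lists were chosen with earlier results of these data known. All 7 are named in every comparison, with the identifier most alike to Ythdf2 and to Alkbh5; the identifiers most alike to the other 5 genes are not printed.

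ERCC rows were left out of library sizes. Counts were tested with edgeR 4.0.16 in R 4.3.3 (TMM, robust quasi-likelihood F-test, Benjamini-Hochberg over all identifiers, threshold 0.05). Its filter on low counts by group kept 27488 of 54446 identifiers, with 99.89% of the mouse counts. Genotype with EU time as a covariate gave the overall effect, and 8 group means gave the others. Standard errors come from the log2 fold change and F. The procedure was tested on simulated data. Alternatives were DESeq2 1.42.0, other scalings and filters, a replicate block, the 4 libraries of a comparison alone, fits without 30 min, and each library left out. Fits without 10 min and 60 minus 20 min were chosen after seeing the data.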

Additional observations from a re-analysis of the deposited data

Results flagged for a closer look

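For 5 of the 7 genes the difference between CKO and Control differed between EU times by edgeR's F-test with 3 degrees of freedom. Of all identifiers 22.7% passed, and the share among identifiers with a mean of at least 10 CPM was not counted. The F values were 19.88 for Ythdf1, 112.3 for Ythdf2, 25.94 for Ythdf3, 21.14 for Ythdc1 and 22.92 for Alkbh5. Without the 30 min libraries only Ythdf2 passed, with F of 266.3, where 5.58% of identifiers did. Without the 10 and 30 min libraries edgeR called 0 of the 7 genes, with 3 at an unadjusted p under 0.05. That fit called 245 of the 19154 identifiers it tested, and DESeq2 was not run there.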

How the results depend on the processing

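The Ythdf2 difference at 10 min kept its direction and its call under every alternative run, one library left out included. The count of the 7 genes called over all EU times was 1. It was 0 with median-of-ratios scaling (Ythdf2 adjusted p = 0.0687), ERCC scaling (0.290), library totals (0.0875), the replicate block (0.0744), without the 30 min libraries, and without the 10 and 30 min libraries; with 1 library left out it was 0 to 1. The single gene called without the first CKO 10 min library, and without the 10 min libraries, was Ythdc2 (−0.33 and −0.34, adjusted p = 0.0439 and 0.0440). Deviations of same-numbered libraries correlated between −0.0583 and 0.0541 over 28 pairs of groups. These values show no strong deviation shared by replicate number. They cannot show whether same-numbered libraries stem from one culture or preparation. The replicate block changed no other call. At 10 min the count was 1, against 7 with ERCC scaling and 2 with library totals or without the 30 min libraries (Ythdc1 in both). At 20 min the count was 0, against 1 with only the 4 libraries. Fits of only the 4 libraries called 2353 of 18189 identifiers at 20 min and 1744 of 18468 at 60 min. With all libraries 264 and 723 of 27488 were called at these times. The count of the 7 genes is given next for 60 min. At 60 min it was 0, against 2 with DESeq2, 1 with only the 4 libraries (Ythdf3) and 0 to 2 with 1 library left out. The count for change across EU times was 5, against 7 with ERCC scaling, 6 with DESeq2 or library totals (Fto added), 1 without the 30 min libraries, 0 without the 10 and 30 min libraries and 5 to 6 with 1 library left out, the addition being Ythdc2 without the second CKO or Control 10 min library. For 60 minus 10 min it was 3 in CKO, against 7 with ERCC scaling, 1 over 60 minus 20 min and 1 to 4 with 1 library left out. In Control it was 4, and 7 with ERCC scaling.

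Signs turned as follows. With ERCC scaling, which shifts all genes, the overall values were Ythdf1 0.201, Ythdf3 0.114, Ythdc1 0.198, Ythdc2 0.160 and Alkbh5 0.129; at 10 min Ythdc1 1.154, Fto 1.109 and Alkbh5 1.207; at 20 min Ythdc1 0.321, Ythdc2 0.283 and Alkbh5 0.384; at 30 min Fto −0.065; at 60 min Alkbh5 0.046. Over 60 minus 10 min ERCC scaling gave Ythdf2 2.026 and Ythdc2 2.122 in CKO, and Ythdf2 1.279, Ythdc1 3.366 and Fto 3.268 in Control. Ythdc2 at 10 min was −0.052 with library totals, −0.004 with no filter and −0.017 without the 30 min libraries. Ythdc1 over 60 minus 10 min in Control was 0.005 with no filter. Over 60 minus 20 min, CKO gave Ythdf2 0.014, Ythdc2 0.133 and Fto −0.049, and Control gave Ythdf2 0.316 and Fto 0.025. With 1 library left out, Fto overall ranged from −0.003 to 0.063, Ythdc2 at 10 min from −0.252 to 0.251, Ythdf3 at 20 min from −0.010 to 0.060, Alkbh5 at 20 min from −0.079 to 0.038, Fto at 30 min from −0.028 to 0.125 and Alkbh5 at 60 min from −0.238 to 0.103. Over 60 minus 10 min, Ythdf2 in CKO ranged from −0.188 to 0.014, Ythdc2 in CKO from −0.220 to 0.240 and Ythdc1 in Control from −0.071 to 0.067. The cause of these changes was not tested. With 2 libraries a group, small differences such as those at 20 min are not resolved.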
